A study of Mus musculus with 2 samples.

Results

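Alpl, the gene for the tissue-nonspecific alkaline phosphatase, was followed across the endothelial classes of mouse lung in 2 single-cell libraries. It was 1 of 32286 features counted in each library. It was selected on its UMI counts by class and library, being nearly missing from the aerocyte capillary cells of the library labelled aKO, and on the genes it went with per cell in aWT. All of these values are therefore given as descriptions. Both libraries came from freshly dissociated lungs of C57BL/6J mice aged 10 to 12 weeks that carried VE-cadherin-cre, a recombinase driven by the promoter of an endothelial cadherin, and a tdTomato reporter. Sorted tdTomato-positive cells were profiled with 10x Genomics 3' chemistry, in which each captured molecule is counted once through its unique molecular identifier (UMI). There was 1 library labelled aKO and 1 labelled aWT, and both carried the driver and the reporter. The series title names a model of hereditary hemorrhagic telangiectasia 2, which is tied to the BMP receptor ALK1, encoded by Acvrl1. The labels give neither the deleted gene, the way in which deletion was started nor the number of mice per library. A single library per label leaves no replicate error and allows no test between aKO and aWT, and every interval below covers counting error only.

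Tissue-nonspecific alkaline phosphatase is held on the outer face of the plasma membrane by a glycosylphosphatidylinositol (GPI) anchor. It splits phosphate from inorganic pyrophosphate, an inhibitor of mineral formation, from pyridoxal phosphate, the circulating form of vitamin B6, and from extracellular nucleotides. It is best known from bone, where its loss causes hypophosphatasia, and alkaline phosphatase staining has long been used to mark capillaries. In the lung, aerocytes are the large, thin capillary endothelial cells that line the sites of gas exchange, while general capillary cells act as their progenitors and carry vasomotor functions.

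The gene (ENSMUSG00000028766) lies on the minus strand of mouse chromosome 4 from 137741733 to 137796384 in GRCm38 (mm10, GENCODE M21). Its full-length transcript, Alpl-201, has 12 exons, and no other annotated gene overlaps it, so that its reads are not shared with an antisense neighbour. RefSeq places starts at 137796384 and 137766475, which are 29909 bases apart. A 3' assay does not show which start was used. The 250 bases before the upstream start, which is also the start of Alpl-201, are printed because this is the regulatory sequence next to the full-length transcript. Capitals mark GGCGCC, a GC-rich word bound by SMAD1 and SMAD5 in BMP-responsive genes.

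Alpl, chr4:137796385-137796634, minus strand: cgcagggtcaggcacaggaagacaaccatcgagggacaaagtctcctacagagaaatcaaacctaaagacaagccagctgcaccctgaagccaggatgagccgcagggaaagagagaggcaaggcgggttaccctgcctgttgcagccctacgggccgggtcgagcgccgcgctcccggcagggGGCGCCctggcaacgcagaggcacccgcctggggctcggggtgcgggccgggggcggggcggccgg

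This RefSeq stretch (GRCm38) is 68.4% G or C and holds GGCGCC once, with its first base 66 bases before the start. The word reads the same on both strands. It occurs in 9.59% of the 32851 RefSeq promoter stretches of the same length, and it does not occur in the 250 bases before the downstream Alpl start (56.0% G or C). A match is a description of the letters and not a site of binding.

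The aKO matrix held 75950364 UMIs over 11045 barcodes and the aWT matrix 72270260 UMIs over 15996 barcodes, of which 10380 aKO and 14900 aWT cells were kept (medians of 5738.5 and 3918 UMIs). Of these, 9777 aKO and 13708 aWT cells carried at least 5 of 10 pan-endothelial markers. There were 48 barcode sequences present in both libraries. Acvrl1 stood at 488 CPM (UMIs of a gene scaled to the UMI total of its class) in aKO endothelial cells and 1032 CPM in aWT, which does not check the labels, because the 3' end of a transcript can lie outside a deleted exon. Xist stood at 730 CPM in aKO and 4.06 CPM in aWT, so a difference in the sex of the mice and the difference in label cannot be told apart. Cells were put in endothelial classes by how many markers of a class they carried, and Alpl was on none of the lists. The 10 genes that led each class by fold held between 2 and 6 of its own markers and 0 of any other class. All 12 aerocyte markers were detected in at least 20% of aerocyte-like cells of each library.

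In aKO aerocyte-like cells Alpl was close to undetectable, with a UMI in 0.680% of cells, while 51.4% of aWT aerocyte-like cells held one. The 1176 aKO aerocyte-like cells held 10 Alpl UMIs, in 8 cells, against 2025 UMIs in the 2252 aWT aerocyte-like cells, in 1158 cells. This corresponded to 1.35 CPM in aKO (95% Poisson interval 0.645 to 2.47) and 179 CPM in aWT (172 to 187). The aKO level was 133-fold lower, with an exact interval of 72.3 to 278 for the counting error of the ratio, or 0.751% of the aWT level. On the log2 scale used for all genes, with 5 CPM added to each level, the aKO over aWT ratio was -4.86. No aKO aerocyte-like cell held more than 2 UMIs of Alpl, 6 holding 1 and 2 holding 2. In aWT, 642 cells held 1 UMI, 295 held 2, 139 held 3 and 82 held 4 or more, up to 8. At the aWT level and their own depths, the aKO aerocyte-like cells would have been expected to yield 1332 Alpl UMIs, spread over 63.7% of the cells.

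**Figure D1:**
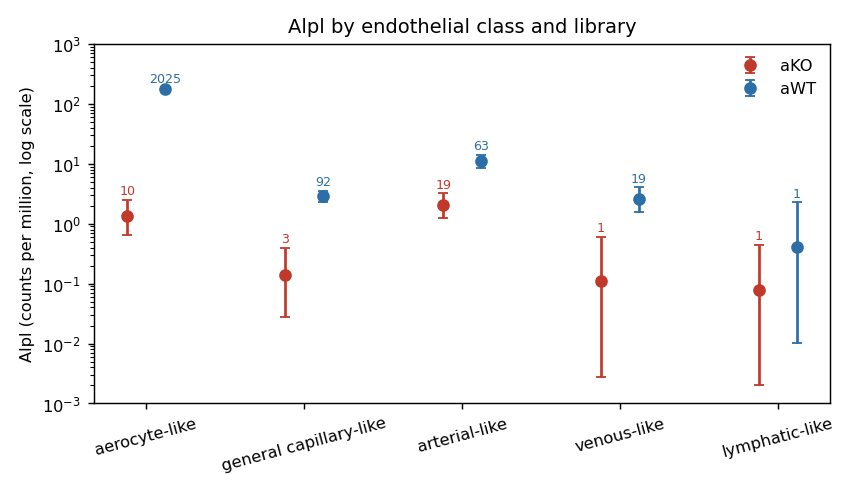
Alpl level in CPM (log axis) in each endothelial class, aKO left (red) and aWT right (blue), with 95% Poisson intervals and the raw number of Alpl UMIs above each point. The aWT aerocyte-like value of 179 CPM stands alone, and the highest aKO value is the arterial one at 2.06 CPM.

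Across the other classes Alpl was low in both libraries, and lower in aKO than in aWT in arterial-like, general capillary-like and venous-like cells. In aWT the order after aerocyte-like cells was arterial-like, general capillary-like, venous-like and lymphatic-like. In aKO the order by level was arterial-like, aerocyte-like, general capillary-like, venous-like and lymphatic-like. General capillary-like, venous-like and lymphatic-like aKO cells held 3, 1 and 1 UMIs with overlapping intervals, so their order cannot be read. Arterial-like and aerocyte-like aKO cells could not be told apart by counting error either. Arterial-like cells held 19 UMIs in 13 of 861 aKO cells (2.06 CPM, 1.24 to 3.22) and 63 UMIs in 53 of 892 aWT cells (11.1 CPM, 8.56 to 14.3). The arterial level was 5.41-fold lower in aKO (3.20 to 9.57), a log2 ratio of -1.19.

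General capillary-like cells were the most numerous class and held 3 UMIs in 3999 aKO cells (0.137 CPM) and 92 UMIs in 8192 aWT cells (2.85 CPM). The ratio was 20.9-fold lower in aKO with a wide interval of 6.92 to 103, since it rests on 3 UMIs. Venous-like cells held 1 UMI in 836 aKO cells (0.109 CPM) and 19 in 1178 aWT cells (2.60 CPM), so that their level in aWT could not be told from that of general capillary-like cells by their intervals (1.57 to 4.06 CPM for venous-like, 2.30 to 3.50 CPM for general capillary-like). Lymphatic-like cells held 1 UMI in each library, in 1562 aKO and 418 aWT cells (0.0791 CPM in aKO and 0.407 CPM in aWT), and no difference was detectable at this depth. With 5 CPM added, the log2 ratios were -0.61 in general capillary-like, -0.57 in venous-like and -0.09 in lymphatic-like cells, a scale on which levels this low can hardly move. Over all endothelial cells Alpl stood at 0.612 CPM in aKO and 36.4 CPM in aWT, 59.6-fold lower in aKO (43.9 to 82.9).

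The place of Alpl within each library differed accordingly. In aKO, 22.7% of the 44 Alpl UMIs lay in aerocyte-like cells and 43.2% in arterial-like cells. In aWT, 88.4% of the 2290 Alpl UMIs lay in aerocyte-like cells and 2.75% in arterial-like cells. The aerocyte-like level in aKO was 0.653 times the arterial-like level (0.271 to 1.48), an interval that includes equality. In aWT the aerocyte-like level was 16.1 times the arterial-like level (12.5 to 21.0), 62.8 times the general capillary-like level (50.9 to 78.3) and 69.0 times the venous-like level (44.0 to 115).

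Free RNA in droplets gives UMIs to cells that do not make a transcript. Lymphatic-like cells were set beside the others as a guide to that background. They were taken because their level was lowest and they rest on 1 UMI per library, so ratios to them are descriptions that the choice itself raises. An Alpl UMI was found in 0.0640% of lymphatic-like aKO cells (median 7164.5 UMIs) and in 0.239% of lymphatic-like aWT cells (median 4875.5 UMIs, Clopper-Pearson interval 0.00606 to 1.33%). General capillary-like aKO cells, at 0.0750% (median 5179 UMIs), could not be told from them (1.73 times their CPM, 0.139 to 90.9). General capillary-like aWT cells had a UMI in 1.11% of cells (median 3672.5 UMIs), a share inside the lymphatic interval but 7.02 times the lymphatic-like level in CPM (1.23 to 280). Their 2.85 CPM was close to the 3.40 CPM of alveolar type 2-like aWT cells (0.700 to 9.92). How much of this low signal is free RNA was not tested. Arterial-like cells stood at 26.1 times the lymphatic-like level in aKO (4.14 to 1083) and 27.4 times in aWT (4.74 to 1099). Aerocyte-like aKO cells, at 0.680% (0.294 to 1.34%; median 5964 UMIs), stood at 17.0 times it in CPM (2.42 to 739).

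The number of Alpl UMIs per 100 UMIs of Fibin, a gene that led the aerocyte class, was also set out as a description. Intervals of these figures cover the counting error of Alpl alone, with the marker count held fixed, so they are too narrow where the marker is sparse. In aKO the figure was 0.158 in aerocyte-like cells (0.0756 to 0.290). It was 271 in aKO arterial-like cells (163 to 424), from 19 Alpl and only 7 Fibin UMIs. In aWT it was 15.7 in aerocyte-like cells and 33.3 in general capillary-like cells (26.9 to 40.9). It was 185 in aWT arterial-like cells (142 to 237), from 63 Alpl and 34 Fibin UMIs. The ratio was thus higher in arterial-like than in aerocyte-like cells of both libraries. The same held with the aerocyte markers Car4, Ednrb or Emp2 in place of Fibin. For aWT general capillary-like against aerocyte-like cells the direction depended on the gene. The ratio was higher for Fibin and Ednrb (19.5, 15.7 to 23.9, against 12.3). It was lower for Car4 (2.64, 2.12 to 3.23, against 6.42) and could not be told apart for Emp2 (4.96, 3.996 to 6.08, against 4.48). The source of the Alpl UMIs in arterial-like and general capillary-like cells was not tested.

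By median UMIs the aKO cells were deeper than the aWT cells in each of the 5 classes. Alpl was lower in aKO in all but the lymphatic-like class, where no difference was detectable. Each cell was thinned to 2000 UMIs, which left out 1439 aKO and 2314 aWT cells. Alpl was then seen in 0.177% of 1128 aKO aerocyte-like cells (2 cells; 0.0215 to 0.639%) and in 29.4% of 2141 aWT aerocyte-like cells (630 cells; 27.5 to 31.4%). Without thinning the shares were 0.680% in aKO and 51.4% in aWT. In arterial-like cells the thinned shares were 0.233% in aKO and 1.61% in aWT, and in general capillary-like cells 0 of 3682 in aKO (upper bound 0.100%) and 0.530% in aWT.

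**Figure D2:**
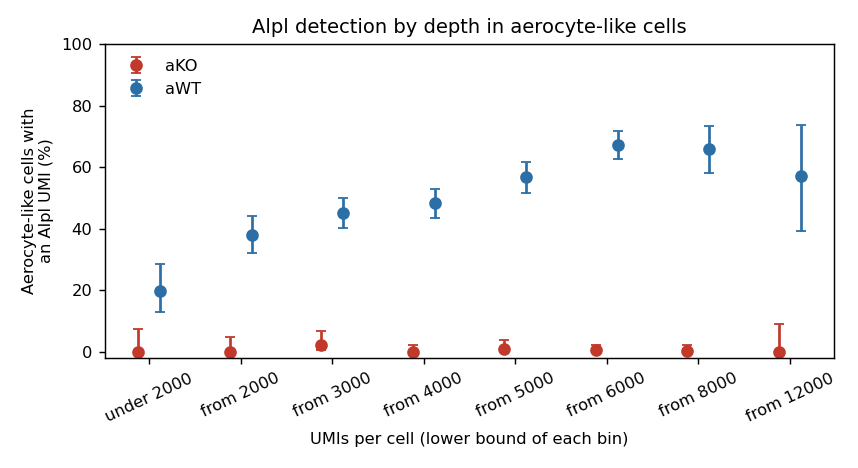
Share of aerocyte-like cells with at least 1 Alpl UMI (vertical axis, percent) by the number of UMIs in the cell (horizontal axis), aKO left (red) and aWT right (blue), with 95% Clopper-Pearson intervals. The aWT share runs between 19.8% in the shallowest cells and 67.3%, while no aKO bin exceeds 2.44%.

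Within aWT aerocyte-like cells the Alpl level lay between 168.8 and 202 CPM in 7 of the 8 depth bins, and at 109 CPM in the 35 cells with at least 12000 UMIs. No aKO bin held more than 4 Alpl UMIs, and 4 of the bins held 0. The level did vary with how many aerocyte markers a cell carried. Cells with 6 of 12 markers stood at 0 UMIs in 179 aKO cells and at 39.7 CPM in 120 aWT cells, and cells with all 12 at 0.782 CPM in aKO (1 UMI) and 198 CPM in aWT. The gap between the libraries was present at every marker number.

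Among aWT aerocyte-like cells, 1094 showed no Alpl UMI, against 985 expected if every cell held Alpl at the class level and counting alone set the zeros. The 1158 aWT cells with a UMI compared with 1267 expected on the same basis. There were thus more cells without a UMI than counting at a common level gives. In aKO, 8 cells had a UMI against 9.95 expected.

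The aerocyte class itself was present in aKO with its markers. Of the 12 markers used to set the class, 0 were at least 2-fold lower and 0 at least 2-fold higher in aKO, with a median log2 ratio of -0.36. Over all 4233 genes with at least 50 CPM in 1 library, 1.77% were at least 2-fold lower and 2.34% at least 2-fold higher. Because the markers chose the cells, nothing is read from this. Emp2, a tetraspan membrane protein of alveolar walls, stood at 3696 CPM in aKO and 4003 CPM in aWT. Car4, a GPI-anchored carbonic anhydrase of capillaries, stood at 3124 CPM in aKO and 2791 CPM in aWT. Ednrb, the endothelin B receptor, stood at 1181 CPM in aKO and 1463 CPM in aWT.

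Beyond the markers, 40 other genes were among the 50 that most separated aerocyte-like cells from other endothelium in aWT, and Alpl was number 19 of the 50. Of these 40, 6 (15%) were at least 2-fold lower in aKO aerocyte-like cells, 2 were at least 2-fold higher and 32 lay within 2-fold, beside the 1.77% lower and 2.34% higher over all genes. Alpl, itself selected for being nearly missing in aKO, is among the 6. Picking genes by their aWT level also favours lower values in aKO, so the counts are a description. Alpl was the lowest of the 40, followed by Kif26b, a kinesin family member, at 22.5 CPM in aKO and 211 CPM in aWT. The others were Abcc3 (log2 ratio -2.51), Slc5a12 (-2.23), Dnah11 (-1.32) and Phlda1 (-1.20). Rgs6, a regulator of G protein signalling that ranked next after the leading 2 markers, stood at 1200 CPM in aKO and 1178 CPM in aWT. The higher ones were Pcolce2 (1.42), an enhancer of procollagen processing, and Ptp4a3 (1.33), a membrane-bound tyrosine phosphatase.

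In the aerocyte-like comparison Alpl had the lowest log2 ratio of all 4233 genes with 5 CPM added. With 1 CPM or nothing added, 3 genes lay below it, the Y-linked Ddx3y, Eif2s3y and Uty. Among 4106 genes outside the mitochondrial, ribosomal, globin, antibody and sex-linked ones, it was followed by Id3 (-4.59) and Id1 (-3.45), inhibitors of basic helix-loop-helix factors that BMP signals induce. With nothing added, Alpl was 133-fold lower and Id3 27.3-fold lower in aKO (24.2 to 31.0), and Alpl was again the lowest of the 4106 genes. Id3 stood at 35.3 CPM in aKO and 963 CPM in aWT. Id1 stood at 97.7 CPM in aKO and 1120 CPM in aWT. The next were Sftpc (-3.25), the surfactant protein of alveolar type 2 cells, AY036118 (-3.21), a noncoding RNA that overlaps ribosomal RNA sequence, Bpgm (-3.06), Kif26b (-2.97), Hsph1 (-2.63), a heat shock protein, Cmss1 (-2.58) and Abcc3 (-2.51).

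Some of these were as low in general capillary-like cells, where the log2 ratios were -5.39 for Id3, -4.88 for Id1, -3.86 for Sftpc and -2.65 for Hsph1. Others had log2 ratios nearer 0 there. Kif26b stood at 0.867 CPM in aKO and 4.13 CPM in aWT general capillary-like cells (-0.64), and Bpgm at 12.3 CPM in aKO and 17.4 CPM in aWT (-0.37). Both Kif26b levels there lay below the 5 CPM added, which shrinks its ratio, so its drop is not shown to be confined to aerocyte-like cells. The ratios of these genes between classes were not tested.

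**Figure D3:**
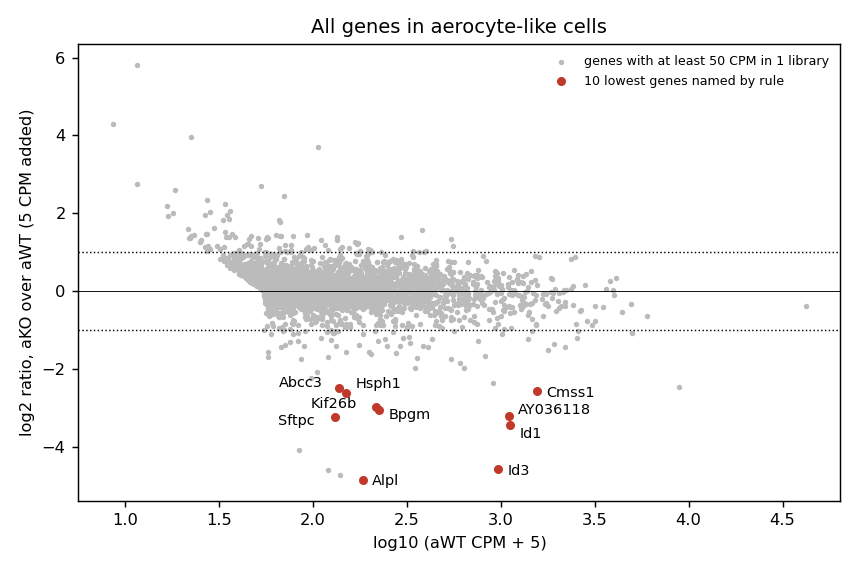
Each grey point is 1 of the 4233 genes with at least 50 CPM in 1 library in aerocyte-like cells, with log10 of the aWT level on the horizontal axis and the log2 ratio of aKO over aWT on the vertical axis, 5 CPM added to each. Red points are the 10 lowest genes named by the rule, with Alpl lowest at -4.86; sex-linked and other left-out genes stay grey, and dotted lines mark 2-fold.

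Genes of other cell types differed between the libraries in the same cells. The 10 alveolar type 2 markers summed to 96.6 CPM in aKO and 219 CPM in aWT aerocyte-like cells, with 9 of the 10 seen in aKO and all 10 in aWT. Sftpc alone stood at 8.88 CPM in aKO and 127 CPM in aWT, and the other 9 summed to 87.7 CPM in aKO and 91.9 CPM in aWT. The 8 airway epithelial markers summed to 16.8 CPM in aKO (4 seen) and 59.0 CPM in aWT (8 seen), mostly from Scgb1a1. The 10 leukocyte markers summed to 2.83 CPM in aKO (7 seen) and 23.2 CPM in aWT (6 seen), and the 8 neutrophil markers to 1.88 CPM in aKO (7 seen) and 10.4 CPM in aWT (7 seen). The 12 fibroblast and mural markers summed to 28.7 CPM in aKO (10 seen) and 32.1 CPM in aWT (11 seen). Alpl itself held 0 UMIs in the 10 alveolar type 2-like cells of aKO (Poisson upper bound 33.5 CPM). It held 3 UMIs in the 69 such cells of aWT, at 3.40 CPM well below the aWT aerocyte-like level. Other lists were higher in aKO. The lymphatic list summed to 1710 CPM in aKO and 419 CPM in aWT aerocyte-like cells, with all 12 markers seen in each, and Lyve1 alone stood at 1375 CPM in aKO and 102 CPM in aWT. The other 11 lymphatic markers summed to 335 CPM in aKO and 318 CPM in aWT. The 12 venous markers summed to 613 CPM in aKO (12 seen) and 192 CPM in aWT (11 seen), led by Hdac9. The 8 alveolar type 1 markers, led by Hopx in aKO and by Clic5 in aWT, summed to 2563 CPM in aKO (7 seen) and 2066 CPM in aWT (8 seen). Hopx alone stood at 1409 CPM in aKO and 831 CPM in aWT, and the other 7 summed to 1153 CPM in aKO and 1235 CPM in aWT. The part of these genes in the Alpl difference was not tested beyond the values given.

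The 44 aKO Alpl UMIs lay in 33 cells, of which 0 had a barcode that also occurred in aWT. These cells held at most 3 UMIs of Alpl each and had a median of 8420 UMIs in all. There were 13 arterial-like and 8 aerocyte-like cells among them. Of the 8 aerocyte-like aKO cells with Alpl, 4 had an Id1 UMI and 0 an Id3 UMI, whereas of the 1168 without Alpl 33.8% had an Id1 UMI and 8.99% an Id3 UMI. Of the 13 arterial-like aKO cells with Alpl, 53.8% had an Id3 UMI, and of the 848 without it 45.0%. These cells are too few for a reading of either gene.

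Arterial-like cells with an Alpl UMI were compared with those without one. All were classed by arterial markers, which include Efnb2, Fbln5, Gja5, Eln and Mgp, so that carrying such genes is no finding. Efnb2, the arterial ephrin B2 ligand, was seen in 92.3% of the 13 aKO cells and in all 53 aWT cells with Alpl, and in 91.7% of aKO and 95.7% of aWT arterial-like cells without Alpl. Fbln5, a fibulin of elastic fibres, was seen in 38.5% of aKO cells with Alpl and 69.9% without, and in 79.2% of aWT cells with Alpl and 73.2% without. Gja5, which encodes connexin 40, was seen in 53.8% of aKO cells with Alpl and 63.4% without, and in 67.9% of aWT cells with Alpl and 72.7% without. Fibin was seen in 0 of the 13 aKO cells and in 1.89% of the 53 aWT cells with Alpl. Eln, the elastin gene of larger arteries, stood at 427 CPM with Alpl and 733 CPM without it in aKO, and at 413 CPM with Alpl and 846 CPM without it in aWT. Mgp, an inhibitor of calcification in arterial walls, stood at 1137 CPM with Alpl and 3160 CPM without it in aKO, and at 2622 CPM with Alpl and 4301 CPM without it in aWT. Ednrb went the other way, at 594 CPM with Alpl and 212 CPM without it in aKO, and at 115 CPM with Alpl and 51.7 CPM without it in aWT. So did the arterial marker Sox17, at 326 CPM with Alpl and 165 CPM without it in aKO, and at 232 CPM with Alpl and 163 CPM without it in aWT. The arterial marker Cdh13 differed in direction, at 2549 CPM with Alpl and 1995 CPM without it in aKO, and at 670 CPM with Alpl and 762 CPM without it in aWT. Only 13 aKO cells stand behind these values, and they are given as a description.

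Per cell, Alpl went with aerocyte genes in aWT. Over 12253 aWT endothelial cells thinned to 2000 UMIs and 6010 genes seen in at least 5% of them, the highest Pearson correlations of log2(count + 1) with Alpl were for Emp2 (r = 0.45), Igfbp7 (0.42), Car4 (0.42), Ednrb (0.41), Rgs6 (0.39), Fibin (0.38), Kdr (0.36), AW112010 (0.34), Tbx2 (0.34) and Slc22a23 (0.33). Emp2, Car4, Ednrb, Fibin and Tbx2 are aerocyte markers. Kdr encodes the VEGF receptor VEGFR2, Igfbp7 a secreted binding protein, and Slc22a23 a member of an organic ion transporter family. These cells share 1 library, and the correlations carry the difference between aerocyte-like cells and the rest.

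These 10 genes stood within 2-fold of their aWT level in aKO aerocyte-like cells, with the exception of Kdr. Their log2 ratios ran between -1.20 for Kdr (1104 CPM in aKO, 2535 CPM in aWT) and 0.23 for AW112010 (990 CPM in aKO, 842 CPM in aWT). Igfbp7 stood at 3863 CPM in aKO and 4905 CPM in aWT, and Slc22a23 at 368 CPM in aKO and 452 CPM in aWT.

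Within the 2141 aWT aerocyte-like cells no gene of 5769 went with Alpl to an extent that could be read. The highest r was 0.11 for Emp2, then 0.09 for Slc22a23, 0.08 each for Ly6c1, Map1b, Rgs6, Nrp1, Igfbp7 and Slc9a3r2, and 0.07 for H13 and Ppp1r15b, and the lowest was -0.10 for Ptprb. In counts this sparse such values are no finding. Id1 was seen in 84.1% of the 630 aWT aerocyte-like cells with Alpl and in 82.8% of the 1511 without it. Id3 was seen in 78.3% of those with Alpl and in 81.1% of those without. Acvrl1 was seen in 94.6% of those with Alpl and in 93.4% of those without.

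Over the 10 averages of class and library, a few other genes had a profile close to that of Alpl. Among 5600 genes, the highest Pearson correlations of log2(CPM + 5) were for Bpgm (r = 0.97), Abcc3 (0.87), Slc5a12 (0.85), Ippk (0.85), Rab14 (0.83), Akirin2 (0.81), Arl5b (0.80), Ywhaz (0.80), Lgalsl (0.79) and Pphln1 (0.79). All 10 values come from the same 2 libraries, and the single high aWT aerocyte-like value weighs heavily on each r.

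Bpgm encodes bisphosphoglycerate mutase, the enzyme that makes the red cell regulator of oxygen binding. It stood at 22.1 CPM in aKO and 221 CPM in aWT aerocyte-like cells, and in arterial-like cells at 28.1 CPM in aKO and 52.0 CPM in aWT. Abcc3, an exporter of organic anions, stood at 19.1 CPM in aKO and 132 CPM in aWT aerocyte-like cells. Slc5a12, a sodium-coupled lactate transporter, stood at 15.9 CPM in aKO and 92.7 CPM in aWT aerocyte-like cells, and below 1 CPM in every other class of either library. In aKO, lymphatic-like cells stood at 14.6 CPM for Bpgm and 0.395 CPM for Abcc3 and held no Slc5a12, each below the aKO aerocyte-like level.

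A high r tells of shape and not of size. Rab14, a small GTPase of endosomes, lay between 206 and 269 CPM in all 10 averages. Ywhaz, a 14-3-3 adaptor, stood at 356 CPM in aKO and 440 CPM in aWT aerocyte-like cells. Pphln1 stood at 146 CPM in aKO and 403 CPM in aWT, Lgalsl at 29.3 CPM in aKO and 64.6 CPM in aWT, Arl5b at 73.9 CPM in aKO and 144 CPM in aWT, Ippk at 36.5 CPM in aKO and 61.0 CPM in aWT, and Akirin2 at 74.4 CPM in aKO and 87.6 CPM in aWT aerocyte-like cells.

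**Figure D4:**
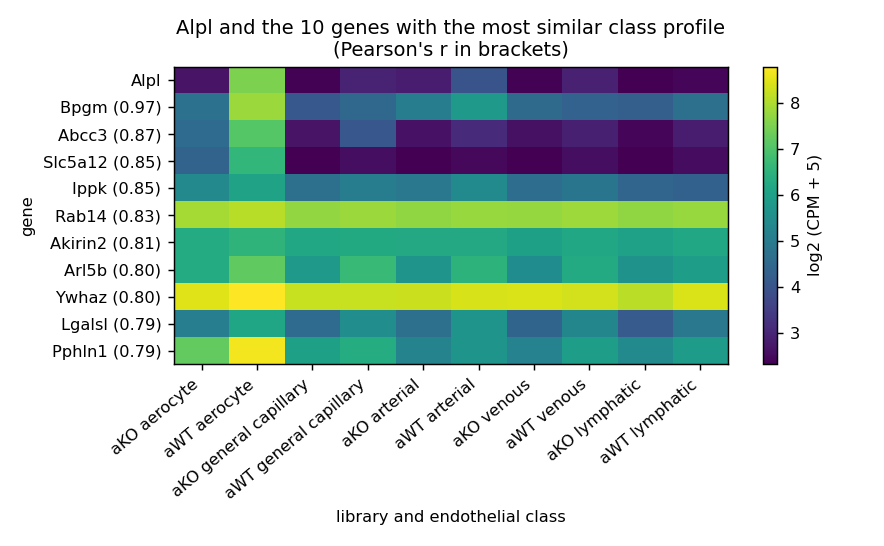
Level of Alpl and of the 10 genes with the most similar profile, as log2(CPM + 5) by colour, over the 5 endothelial classes (columns, aKO left of aWT within each class) with Pearson's r to Alpl in brackets. Alpl, Bpgm, Abcc3 and Slc5a12 are brightest in aWT aerocyte-like cells, whereas Rab14 and Ywhaz are bright in all columns.

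The neighbours of Alpl on chromosome 4 had ratios within 2-fold with 5 CPM added, which says little for those near or below that level. Ece1, which encodes endothelin-converting enzyme and lies on the far side of the upstream start, stood at 319 CPM in aKO and 538 CPM in aWT aerocyte-like cells (log2 ratio -0.75). Eif4g3 stood at 312 CPM in aKO and 335 CPM in aWT (-0.10), and Usp48, beyond the 3' end, at 42.0 CPM in aKO and 53.4 CPM in aWT (-0.31). Rap1gap, the nearest gene to the 3' end, held 2 UMIs in aKO and 6 in aWT, too few for a ratio to be read. Hspg2, farther beyond the 3' end, held 40 UMIs in aKO and 28 in aWT, at 5.38 CPM in aKO and 2.48 CPM in aWT (0.47).

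No other alkaline phosphatase was detected. Alpi and Akp3, the intestinal enzymes, and Alppl2, an enzyme of embryonic and germ cells, held 0 UMIs in the endothelial cells of both libraries. For the lists of related genes, members with at least 5 CPM in 1 library were counted, with 2-fold judged after 5 CPM was added to each level. At that minimum 1.33% of 10294 genes were at least 2-fold lower and 2.21% at least 2-fold higher in aKO aerocyte-like cells, with a median log2 ratio of 0.07.

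Of 20 genes of pyrophosphate, phosphate and nucleotide handling, 9 were measured in aerocyte-like cells, of which 0 were 2-fold lower and 1 was 2-fold higher, with a median log2 ratio of -0.26. The higher gene was Entpd1, which encodes the nucleotidase CD39, at 54.4 CPM in aKO and 20.01 CPM in aWT (1.25). Enpp5, a member of the pyrophosphatase and phosphodiesterase family, stood at 17.2 CPM in aKO and 30.7 CPM in aWT (-0.68), and Mgp at 19.8 CPM in aKO and 31.2 CPM in aWT (-0.55). Adk, adenosine kinase, stood at 149 CPM in aKO and 210 CPM in aWT (-0.48), Enpp2, which encodes autotaxin, at 89.9 CPM in aKO and 113 CPM in aWT (-0.31), and Enpp4 at 99.4 CPM in aKO and 120 CPM in aWT (-0.26). The main producer of extracellular pyrophosphate, Enpp1, held 1 UMI in aKO and 0 in aWT aerocyte-like cells. Ank, the pyrophosphate transporter, stood at 4.98 CPM in aKO and 4.07 CPM in aWT aerocyte-like cells, and at 171 CPM in aKO and 161 CPM in aWT lymphatic-like cells.

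Of 8 genes of vitamin B6 metabolism 5 were measured, and none of them was past 2-fold in either direction with 5 CPM added (median 0.08). The largest ratio was that of Alas1, a heme synthesis enzyme that uses pyridoxal phosphate, at 84.8 CPM in aKO and 41.2 CPM in aWT (0.96). Pdxk, pyridoxal kinase, stood at 6.19 CPM in aKO and 8.06 CPM in aWT. Of 28 genes that attach or remodel the GPI anchor, 27 were in the files and 23 were measured. None was past 2-fold with 5 CPM added (median 0.01). The largest ratio was that of Pigv, at 13.9 CPM in aKO and 6.64 CPM in aWT (0.70).

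A list of 25 other endothelial surface proteins held mostly GPI-anchored ones, with the transmembrane Thbd and Procr among them. Of these 25, 14 were measured (Thbd among them, at 1406 CPM in aKO and 1229 CPM in aWT), of which 0 were 2-fold lower and 3 were 2-fold higher (median 0.33). The higher ones were Cdh13, which encodes T-cadherin, at 42.1 CPM in aKO and 4.78 CPM in aWT (2.27), Prnp, the prion protein gene, at 16.7 CPM in aKO and 3.01 CPM in aWT (1.44), and Plaur, the urokinase receptor gene, at 682 CPM in aKO and 335 CPM in aWT (1.02). Gpihbp1, which carries lipoprotein lipase into the capillary lumen, stood at 157 CPM in aKO and 83.7 CPM in aWT (0.87). Ly6c1 stood at 4199 CPM in aKO and 2354 CPM in aWT (0.83), and Bst2, which encodes tetherin, at 319 CPM in aKO and 476 CPM in aWT (-0.57).

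Of 17 osteogenic genes, only Sparc and Bmp4 were measured in aerocyte-like cells, and neither was past 2-fold with 5 CPM added. Sparc, a collagen-binding matrix protein, stood at 193 CPM in aKO and 152 CPM in aWT (0.34). Bmp4 stood at 8.21 CPM in aKO and 1.95 CPM in aWT (0.93), levels so low that the 5 CPM added shrinks the ratio. By the CPM values alone it was past 2-fold higher in aKO. Runx2, the transcription factor that directs bone formation, held 6 UMIs in aKO and 18 in aWT aerocyte-like cells, and Sp7 held 0 in both.

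The list of genes that answer to BMP9 and ALK1 had been known from earlier results of these data to be lower in aKO, so its direction is not independent evidence. In aerocyte-like cells 14 of its 20 genes were measured, of which 8 were at least 2-fold lower and 1 was at least 2-fold higher in aKO (median -1.27). Besides Id3 and Id1, Tspan18, a tetraspanin, stood at 170 CPM in aKO and 907 CPM in aWT (-2.38), Smad6, an inhibitory SMAD, at 157 CPM in aKO and 633 CPM in aWT (-1.98), and Id2 at 5.92 CPM in aKO and 33.2 CPM in aWT (-1.81). The higher gene was Ackr3, which encodes an atypical chemokine receptor, at 134 CPM in aKO and 22.4 CPM in aWT (2.34). Acvrl1 itself stood at 828 CPM in aKO and 1533 CPM in aWT aerocyte-like cells (-0.88). In arterial-like cells 11 of 19 measured list genes were at least 2-fold lower and 1 at least 2-fold higher, over 2.92% lower and 2.77% higher of all genes there. Id1, at 214 CPM in aKO and 1452 CPM in aWT arterial-like cells, was 6.79-fold lower in aKO with nothing added (6.47 to 7.14), inside the interval of the 5.41-fold lower Alpl level there.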

How the data were processed

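Mouse lung cells sorted for tdTomato were measured, with 1 library per group by the sample titles. The deposited files give raw UMI counts as whole numbers. Per the submitters' processing notes, Cell Ranger 7.2.0 and mm10 were used. The annotation release and the treatment of intronic reads are not given in the sources read for this work.

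Cells needed 500 genes and no more than 15% mitochondrial UMIs. Scrublet in scanpy 1.11.5, set to 0.8% per 1000 barcodes, called 406 aKO (3.68%) and 762 aWT barcodes (4.76%) as doublets, which were removed. The expected rates were 8.84% in aKO and 12.8% in aWT, so some doublets remain. A cell with at least 6 markers of the aerocyte, arterial, venous or lymphatic list took that class, needing a lead of 3 where 2 lists passed. Otherwise it was general capillary-like with 6 markers of that list. Among endothelial cells, 13.7% in aKO and 5.66% in aWT were in none of the 5 classes, because no list passed or 2 passed without that lead.

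UMIs were summed per class and library and scaled to CPM. Intervals at 95% are exact Poisson for CPM, Clopper-Pearson for shares and exact binomial for ratios. Log2 ratios add 5 CPM, which understates low genes. Size counts used 50 CPM in 1 library (5 CPM for lists) and 2-fold. On simulated counts with Poisson error alone, the size rule recovered at least 49 of 50 genes planted at 3-fold or 4-fold in each direction. It called 0 of 3649 unchanged genes. The correlation ranking recovered 10 of 10 planted genes, but for a target gene with a higher mean count than Alpl. It therefore does not vouch for the Alpl correlations. Named genes were the 10 lowest in aerocyte-like cells, the 10 most like Alpl per comparison, up to 6 per list by size, and class markers. Leading aerocyte genes, neighbours and low list members were named after their values were seen. Alpl, the lists and the rules were chosen with earlier results of these data known. Alternatives were other doublet and cell filters, class minimums, pseudocounts, thinning depths and size limits, and TMM factors from edgeR 4.0.16. Python 3.11.15, numpy 2.4.6 and scipy 1.17.1 were used.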

Additional observations from a re-analysis of the deposited data

How the results depend on the processing

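The Alpl log2 ratio stayed below 0 under all alternatives run in aerocyte-like (14 alternatives, -7.06 to -4.79), arterial-like (13, -2.44 to -0.81), general capillary-like (13, -4.38 to -0.50), venous-like (13, -4.58 to -0.31) and all endothelial cells (12, -5.90 to -2.81). In lymphatic-like cells it ran between -2.36 and 0.09 over 13 alternatives and was below 0 in 11 of them, on 1 UMI per library. Only the value added to the CPM moved the ratios beyond counting error, and this follows from its construction. With 1 CPM added the ratios were -6.26 in aerocyte-like, -1.99 in arterial-like, -1.76 in general capillary-like, -1.70 in venous-like and -4.54 in all endothelial cells. With nothing added they were -7.06 in aerocyte-like, -2.44 in arterial-like, -4.38 in general capillary-like, -4.58 in venous-like, -2.36 in lymphatic-like and -5.90 in all endothelial cells. Keeping only aerocyte-like cells with at least 10 of 12 markers, chosen after seeing the data, left 8 Alpl UMIs in 708 aKO cells and 1516 in 1349 aWT cells and a ratio of -4.90. The number of genes past the size rule in aerocyte-like cells (75 lower and 99 higher in aKO) followed the limits set. It was 137 lower and 228 higher with no minimum level, 170 higher with a minimum of 20 CPM, 200 lower and 325 higher at 1.5-fold, and 28 lower and 23 higher at 3-fold. Of the 10 genes most like Alpl within aWT aerocyte-like cells, 3 were shared with the list made without thinning. Of the 10 most like it over classes, 2 were shared with the list made without lymphatic-like cells, so that list depends on the classes used; the cause was not tested. No paired analysis was possible because there is 1 library per group. Depth limits what can be said of venous-like, lymphatic-like and aKO general capillary-like cells, which hold 1 to 3 Alpl UMIs in aKO.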

Other observations

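Barcodes called as doublets showed the same gap. The 405 aKO doublet calls that passed the cell filter had a median of 12622 UMIs and held 0 Alpl UMIs, although 97 of them were aerocyte-like by their markers. The 751 aWT doublet calls had a median of 8033 UMIs and held 378 Alpl UMIs in 232 barcodes (30.9%), with 291 of the UMIs in the 316 that were aerocyte-like by their markers. Among doublet calls with at least 3 defining markers of both aerocyte and general capillary cells, 58 in aKO held 0 Alpl UMIs and 233 in aWT held 233.

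Endothelial cells outside the 5 classes held 8 Alpl UMIs in 1343 aKO cells and 37 in 776 aWT cells. Those for which no list passed held 3 UMIs in 990 aKO cells, all 3 in 1 cell, and 25 in 629 aWT cells (1.18 CPM at a median of 1827 UMIs in aKO and 22.3 CPM at a median of 1510 UMIs in aWT). Those for which 2 lists passed held 5 UMIs in 353 aKO cells and 12 in 147 aWT cells (0.875 CPM at a median of 14672 UMIs in aKO and 8.86 CPM at a median of 8093 UMIs in aWT). The 5 fibroblast and mural-like cells of aWT held 3 Alpl UMIs (38.0 CPM, 7.84 to 111), and the 9 of aKO held 0 (Poisson upper bound 38.9 CPM). No conclusion is drawn from so few cells.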
